A study of Avicennia schaueriana with 18 samples.

Results

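In the mangrove *Avicennia schaueriana*, 7 transcripts that match *Arabidopsis* genes of plastid isoprenoid and chlorophyll biosynthesis were followed in flowers, stems and leaves. They are 7 of the 49490 transcripts of the deposited count table and match 5 *Arabidopsis* genes. As_26117 matches CLA1 (AT4G15560), As_48417 matches ISPD (AT2G02500), As_21256 and As_19328 match IPP1 (AT5G16440), As_24340 and As_17120 match GGPS1 (AT4G36810), and As_12775 matches CAO (AT1G44446). The members were chosen by their listing in the study's tables of transcripts that differed between sites. The 5 transcripts As_26117, As_48417, As_19328, As_24340 and As_17120 were chosen by the site difference in stems, and the 2 transcripts As_21256 and As_12775 by the site difference in leaves. In those tissues the site difference is given as a description, without a test.

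Plastids make isoprenoids through the methylerythritol phosphate (MEP) pathway. In *Arabidopsis*, CLA1 is the deoxyxylulose phosphate synthase that opens this pathway, and the enzyme of AT2G02500 attaches a cytidyl group to methylerythritol phosphate in a later step. IPP1 is an isopentenyl diphosphate isomerase, which interconverts the isomeric building blocks of all isoprenoids, and GGPS1 is a geranylgeranyl diphosphate synthase, whose product gives rise to carotenoids, to gibberellins and to the phytol tail of chlorophyll. CAO, chlorophyllide a oxygenase, makes the precursor of chlorophyll b, the accessory pigment of the light-harvesting antennae.

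RNA was sequenced from adult flowering trees sampled in the field, 3 subtropical trees (St1, St2 and St4, at 28.36 to 28.48 degrees south) and 3 equatorial trees (Eq4, Eq5 and Eq6, at 0.64 to 0.65 degrees south), with 1 library for each of 3 tissues of a tree and 18 libraries in all. Subtropical trees were sampled from 23 to 25 August at 18.3 to 20.9 degrees Celsius and a relative humidity of 82 to 86%, and equatorial trees on 28 and 29 July of the same year at 28.3 to 30.1 degrees Celsius and 47 to 51%. Site, date and weather differed together and cannot be told apart, and the labels name no genotype, treatment or age beyond the flowering stage. In bulk tissue, fewer cells of a type and less RNA per cell cannot be told apart either.

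Flower libraries held 5055480 to 11172632 counts, stem libraries 9894226 to 15802680 and leaf libraries 8749713 to 14313994. The flower library labelled Eq6 stood apart. Of 65 transcripts counted in all 6 subtropical leaf and stem libraries and in no equatorial one, it counted 53, against 3 in each of the other 2 equatorial flower libraries and 48 to 59 in the subtropical ones. Of 36 transcripts counted in all 6 equatorial leaf and stem libraries and in no subtropical one, it counted 6. The other 2 equatorial flower libraries counted 31 each, and the subtropical ones 1 to 2. Whether the library belongs to its labelled tree was not tested, and counts of trees include it under its label. Flower results are therefore also given without this library. The cellulose synthases CESA4, CESA8 and IRX3, markers of wood, rose in stems relative to leaves, and the photosystem proteins PSAO and PSBO1, markers of green tissue, fell. Summed over the 3 wood markers, the Eq6 stem reached 1645 CPM, against 88.0 and 188 CPM in the other equatorial stems and 143 to 367 CPM in the subtropical stems.

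CAO is the member for which the study lists a qRT-PCR primer pair, and the pair is shown because it marks the stretch of As_12775 that such an assay amplifies. Both primers are written 5′ to 3′ in lower case.

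As_12775 left primer: tgcttgatggggcgaatgtc
As_12775 right primer: tccactgaatccctccatagcc

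Levels are CPM, the counts of a transcript relative to the library total after scaling by the TMM method over all 18 libraries. Transcript lengths were not used, so that the levels of different transcripts are not compared with each other. A gene name stands for the listed transcript alone. Other transcripts of the assembly that may match the same gene were not examined, so a low level is not that of the whole gene.

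The transcript matching CLA1 (As_26117), the entry enzyme of the pathway, was counted mainly in leaves. In flowers it had 2 counts in St1 (0.216 CPM) and 0 in the other 5 libraries. Stems of subtropical trees held 19.6, 2.41 and 2.05 CPM in St1, St2 and St4, against 0 counts in all 3 equatorial stems. Leaves held 71.9, 48.6 and 19.9 CPM in St1, St2 and St4, against 2.28, 23.2 and 0 CPM in Eq4, Eq5 and Eq6. The transcript was thus high in every subtropical leaf, and scattered in equatorial leaves from 0 up to the subtropical range. Pooled over the 6 trees, flowers had 641-fold less than leaves, with a 95% interval of 177-fold to 5302-fold from an exact binomial test on 2 and 1519 counts, which covers counting error only. Without the tree St1, flowers had 0 counts and were at least 238.77-fold lower than leaves, with 3 counts over the flower libraries as the limit. In equatorial trees, stems were at least 100.68-fold lower than leaves, taking 3 counts over the 3 stem libraries as the limit that a count of 0 allows. The leaf of Eq5 held 172 of the 200 equatorial leaf counts, and without that library the bound was 18.8-fold. The lower ends of the exact binomial 95% intervals were below these bounds. They were 194-fold for flowers without St1, 81.1-fold for equatorial stems and 14.3-fold for equatorial stems without the Eq5 leaf. Levels were lower in stems than in leaves in 5 of 6 trees, and in Eq6 both tissues were at 0.

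The transcript matching ISPD (As_48417), the enzyme of the cytidyl transfer in the same pathway, was at its lowest in flowers of every tree. Flowers held 5.07, 3.95 and 4.35 CPM in St1, St2 and St4, against 4.66, 3.18 and 3.86 CPM in Eq4, Eq5 and Eq6. Stems held 42.1, 23.1 and 15.7 CPM in the subtropical trees, against 9.54, 6.52 and 9.63 CPM in the equatorial trees. Leaves held 37.5, 27.4 and 18.1 CPM in the subtropical trees, against 42.8, 29.0 and 19.8 CPM in the equatorial trees. The flower values of the 6 trees did not overlap with those of stems or leaves, and only in stems did the sites separate. The site difference in stems chose ISPD, and 7.95% of the transcripts tested in stems had every subtropical library above every equatorial one. The share of all transcripts with such a separation of tissues was not counted.

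**Figure D1:**
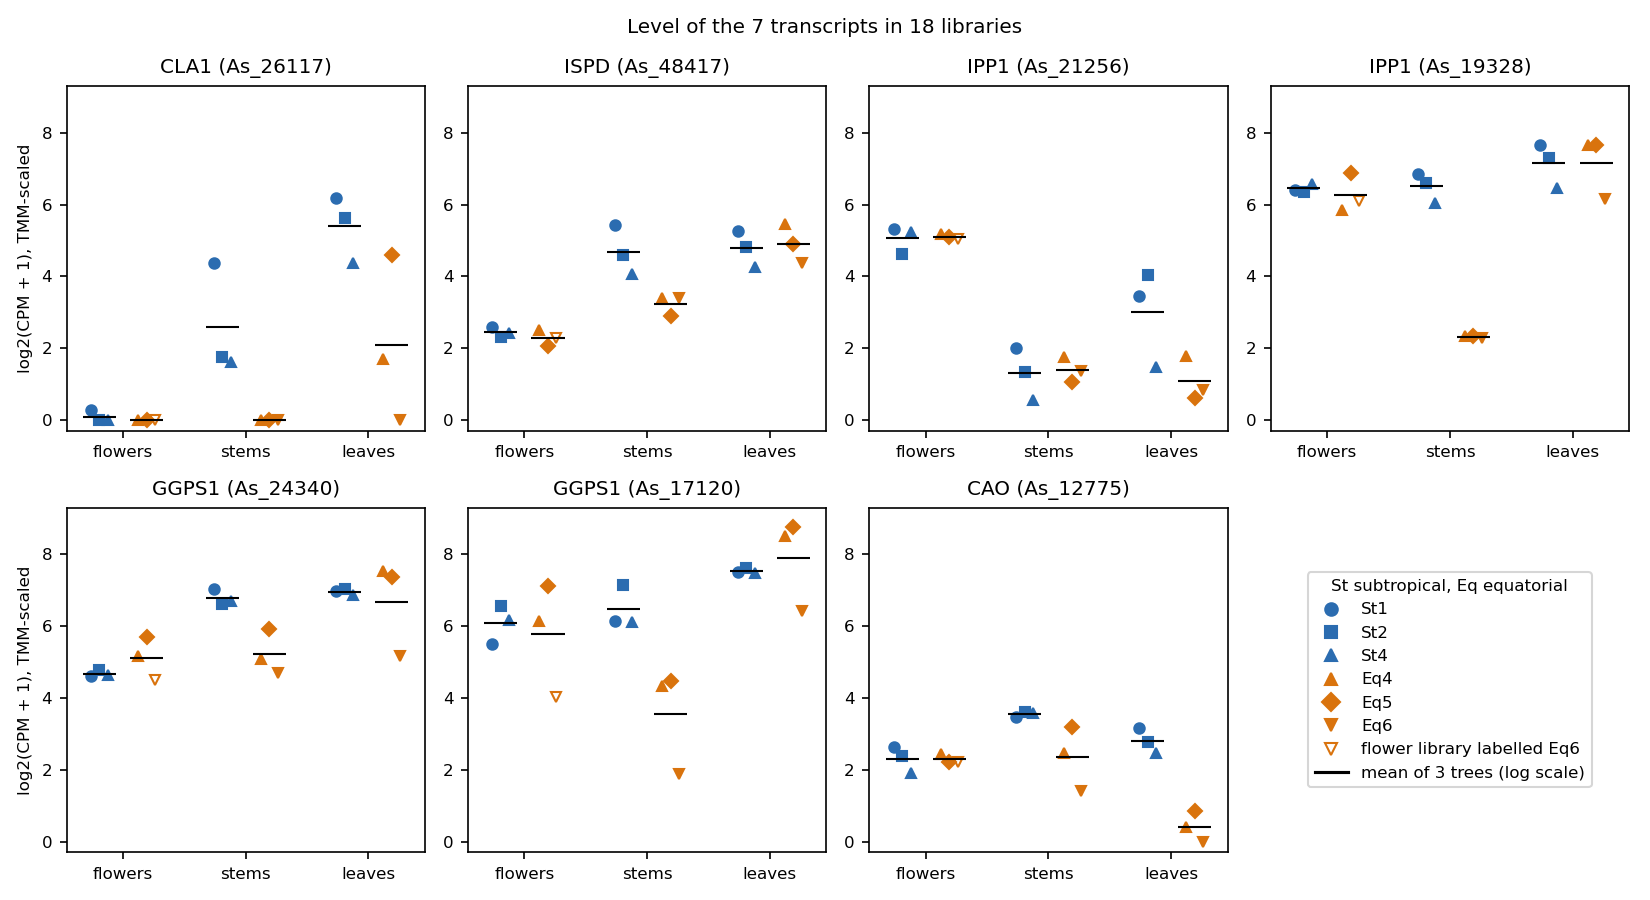
Level of the 7 transcripts in each of the 18 libraries, as log2 of TMM-scaled CPM plus 1, by tissue, with subtropical trees (blue) left of equatorial trees (orange). Bars are means of 3 trees on this scale and the open triangle is the flower library labelled Eq6. CLA1 lies at or near 0 in all flowers, IPP1 As_21256 is highest in flowers, and IPP1 As_19328 drops to 3.84 to 4.08 CPM in equatorial stems.

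The copies of IPP1 had different tissue patterns. As_21256 was a flower transcript, with 38.7, 23.8 and 36.9 CPM in the flowers of St1, St2 and St4, against 35.4, 33.4 and 31.8 CPM in those of Eq4, Eq5 and Eq6. Its stems held 2.99, 1.53 and 0.482 CPM in subtropical trees, against 2.35, 1.09 and 1.56 CPM in equatorial trees. Its leaves held 10.0, 15.5 and 1.81 CPM in subtropical trees, against 2.44, 0.540 and 0.805 CPM in equatorial trees. Every flower library was above every stem and leaf library, and St4 overlapped with the equatorial leaves. How many of all transcripts had every flower library above the other tissues was not counted.

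As_19328, the other isomerase copy, was high in 15 of the 18 libraries. Flowers held 84.0, 81.3 and 94.1 CPM in St1, St2 and St4, against 57.1, 117 and 67.6 CPM in Eq4, Eq5 and Eq6. Stems held 114, 96.5 and 65.5 CPM in the subtropical trees, against 4.07, 4.08 and 3.84 CPM in the equatorial trees. Leaves held 202, 157 and 87.7 CPM in the subtropical trees, against 200, 203 and 69.9 CPM in the equatorial trees. The 3 equatorial stems were the low libraries, below every other library of this transcript.

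The copies of GGPS1 were both highest in leaves. As_24340 had 23.3, 26.6 and 24.1 CPM in the flowers of St1, St2 and St4, against 34.7, 50.7 and 21.8 CPM in those of Eq4, Eq5 and Eq6. Its stems held 130, 97.9 and 102 CPM in subtropical trees, against 32.9, 59.6 and 25.0 CPM in equatorial trees. Its leaves held 124, 129 and 116 CPM in subtropical trees, against 183, 163 and 34.6 CPM in equatorial trees. The Eq6 leaf was the low library of this tissue, and without it the equatorial leaves were above the subtropical ones. Without that library, edgeR's quasi-likelihood test gave a log2 fold change of -0.48, subtropical minus equatorial (adjusted p = 0.277). How many of all transcripts separate in this way was not counted.

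As_17120 had 44.4, 93.8 and 71.0 CPM in the flowers of St1, St2 and St4, against 69.5, 138 and 15.4 CPM in those of Eq4, Eq5 and Eq6. Its stems held 70.1, 140 and 68.3 CPM in subtropical trees, against 19.1, 21.2 and 2.67 CPM in equatorial trees. Its leaves held 182, 195 and 176 CPM in subtropical trees, against 362, 431 and 85.2 CPM in equatorial trees. In all 3 tissues the library labelled Eq6 was the lowest of its group, for this copy as for As_24340.

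The transcript matching CAO (As_12775), the enzyme of chlorophyll b synthesis, was near 0 in equatorial leaves. Flowers held 5.17, 4.22 and 2.79 CPM in St1, St2 and St4, against 4.43, 3.69 and 3.63 CPM in Eq4, Eq5 and Eq6. Stems held 9.98, 11.2 and 11.0 CPM in the subtropical trees, against 4.51, 8.06 and 1.67 CPM in the equatorial trees. Leaves held 7.97, 5.79 and 4.52 CPM in the subtropical trees, against 0.326, 0.810 and 0 CPM in the equatorial trees. The sites separated in leaves and in stems and overlapped in flowers, and the equatorial leaf values rest on 10 counts in all.

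To compare the tissues, the differences averaged over both sites were tested in 1 fit of all 18 libraries by edgeR's quasi-likelihood test, with p-values adjusted by the Benjamini-Hochberg method over 37761 transcripts and a threshold of 0.05. Both sites have equal weight in these averages. The trees' index sequences were the same in every tissue, and whether each tissue had a sequencing run of its own is not given in the sources used here. All 7 members passed the filter on low counts. CLA1 has no usable fold change here, because a group at 0 makes the fitted value depend on the prior count.

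In flowers relative to leaves, 2 of the 7 members rose and 5 fell, where 25.5% of all tested transcripts rose and 21.1% fell. As_21256 rose by a log2 fold change of 3.26 ± 0.49 (SE, adjusted p = 5.79e-05) and was higher in 6 of 6 trees. ISPD had a log2 fold change of -2.81 ± 0.28 (SE, adjusted p = 1.01e-06) and As_24340 of -2.09 ± 0.33 (SE, adjusted p = 9.73e-05), each lower in 6 of 6 trees. As_17120 (log2 fold change -1.71 ± 0.52, adjusted p = 0.0135) was lower in 6 of 6 trees, As_19328 (-0.89 ± 0.26, adjusted p = 0.0114) in 5 of 6. CLA1 fell with an adjusted p of 0.000744. CAO passed the test for the average (1.41 ± 0.45, adjusted p = 0.0179), although flowers were below leaves in all 3 subtropical trees and above them in all 3 equatorial trees. The averages of CAO and As_21256 include the leaf values that helped to choose these 2 transcripts. As_21256 averaged 33.6 CPM in flowers and 1.26 CPM in leaves of equatorial trees, against 33.1 and 9.10 CPM in subtropical trees. The calls of As_19328, As_17120 and CAO were lost when single trees were left out. As_19328 was no longer called without St1, St2 or Eq4 (adjusted p of 0.0835, 0.0575 and 0.0850), As_17120 without St1, St4 or Eq4 (0.0736, 0.0619 and 0.0643), and CAO without St1, St2, St4 or Eq4 (0.0611, 0.0705, 0.0550 and 0.0930). Without the flower library labelled Eq6, 7 of 7 members were still called.

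In stems relative to leaves, 1 member rose and 5 fell, where 18.3% of all tested transcripts rose and 14.8% fell. CAO rose by 2.23 ± 0.45 on the log2 scale (SE, adjusted p = 0.00109) and was higher in the stem of 6 of 6 trees. The equatorial leaf values in this average helped to choose CAO. As_19328 had a log2 fold change of -3.01 ± 0.28 (SE, adjusted p = 1.54e-06) and As_17120 of -2.70 ± 0.54 (SE, adjusted p = 0.00106), each lower in 6 of 6 trees. ISPD (-0.95 ± 0.25, adjusted p = 0.00865) and As_24340 (-0.95 ± 0.32, adjusted p = 0.0306) were lower in 5 of 6 trees, and CLA1 fell with an adjusted p of 0.00557. The log2 fold change of As_21256 was -1.06 ± 0.49 (SE, adjusted p = 0.110), with lower stems in 4 of 6 trees. These averages combine subtropical and equatorial trees that were far apart in stems, as the levels of As_19328 show. The stem values in them helped to choose CLA1, ISPD, As_19328, As_24340 and As_17120, so these tests are not independent of the choice. In equatorial trees As_19328 averaged 3.99 CPM in stems and 157 CPM in leaves, against 92.1 and 149 CPM in subtropical trees. For As_17120 the averages were 14.3 and 293 CPM in equatorial trees, against 92.7 and 184 CPM in subtropical trees. As_24340 was not called without St1, St2, St4 or Eq4 (adjusted p of 0.0924, 0.124, 0.115 and 0.186), and ISPD not without St2 (0.0501).

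In flowers relative to stems, 2 of the 6 members with an estimate rose and 2 fell, where 19.1% of all tested transcripts rose and 18.2% fell. As_21256 rose by 4.32 ± 0.51 (log2, SE, adjusted p = 1.17e-05) in 6 of 6 trees, and As_19328 by 2.13 ± 0.28 (adjusted p = 2.83e-05), with higher flowers in all 3 equatorial trees and in 1 of 3 subtropical trees. ISPD had a log2 fold change of -1.86 ± 0.27 (SE, adjusted p = 7.63e-05) and As_24340 of -1.14 ± 0.32 (SE, adjusted p = 0.0113), lower in 6 and in 5 of 6 trees. The values of As_17120 (0.997 ± 0.516, adjusted p = 0.143) and CAO (-0.82 ± 0.40, adjusted p = 0.123) did not pass. For ISPD, As_19328, As_24340 and As_17120, the stem values in these averages helped to choose the transcripts. The tissues of a tree are paired, and with the tree as a replicate block As_17120 was called (log2 fold change 0.99, adjusted p = 0.000704). As_24340 was not called without St1 or St4 (adjusted p of 0.0734 and 0.0605). As_17120 was called without the flower library labelled Eq6 (1.27, adjusted p = 0.0467) or the whole tree Eq6 (1.02, adjusted p = 0.00935), and CAO without the tree Eq6 (-0.97, adjusted p = 0.0185).

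**Figure D2:**
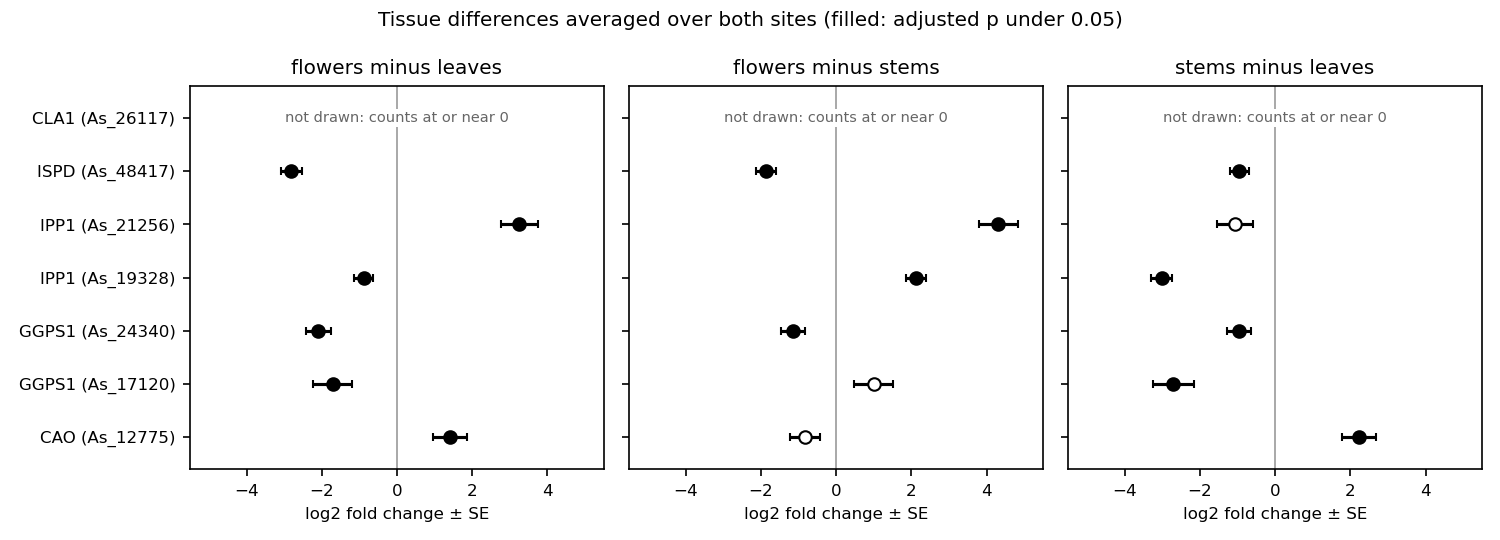
Log2 fold changes between tissues, averaged over both sites, with the standard error as bars, for the 6 transcripts with an estimate. Filled points passed an adjusted p of 0.05. As_21256 stands at 3.26 and 4.32 in flowers against leaves and stems, while its partner As_19328 stands at -0.89 and 2.13.

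Averaged over both sites, ISPD and As_24340 ran from high to low as leaves, stems, flowers, and As_19328 as leaves, flowers, stems, with each neighbouring pair past the test. The steps between stems and leaves of ISPD and As_24340, and between flowers and stems of As_19328, were mostly those of the equatorial trees, whose stem values helped to choose the 3 transcripts, and for As_24340 the call was lost without any of 4 trees. In subtropical trees ISPD averaged 27.0 CPM in stems and 27.6 CPM in leaves, As_24340 averaged 110 CPM in stems and 123 CPM in leaves, and As_19328 had 86.5 CPM in flowers and 92.1 CPM in stems. The step of As_24340 between flowers and stems was mostly that of the subtropical trees, whose flowers averaged 24.7 CPM. In equatorial trees As_24340 averaged 39.2 CPM in stems and 35.7 CPM in flowers. As_21256 was highest in flowers, with stems and leaves not told apart. As_17120 was highest in leaves, with flowers and stems told apart only with the tree as a block or without Eq6. CAO was higher in stems than in leaves, with flowers below stems only without the tree Eq6, or with the tree as a block and without the flower library labelled Eq6 (-1.01, adjusted p = 0.0196). Its log2 step between stems and leaves was larger in equatorial trees (4.75 against 0.379 CPM) than in subtropical trees (10.7 against 6.09 CPM). The equatorial leaf values helped to choose CAO.

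Markers of the tissues moved along with these contrasts. The summed level of the 2 photosystem markers was 12.8 to 80.3 CPM in flowers, 80.2 to 221 CPM in stems and 154 to 673 CPM in leaves, and neither marker was at 0 in any library. Of 7 transcripts that the study lists under photosynthesis, both of these markers among them, 6 fell in flowers relative to leaves (median log2 fold change -2.69, against 0.01 over all transcripts), 5 fell in stems relative to leaves (median -1.33, against 0.04) and none rose in either. These 7 were picked by the study for site differences in the same libraries, and their part in the members' patterns was not tested. The 4 housekeeping transcripts in the study's primer list (UBQ11, UBQ6, UBQpase and EIFa) ranged from -0.81 to 0.91 in the tissue contrasts and from -0.28 to 0.24 between sites on the log2 scale.

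Between sites, the members were compared in the tissues that had not chosen them. In leaves, none of the 5 members chosen in stems was called, where edgeR's test called 56 of 28243 transcripts (0.198%). It gave 3693 transcripts an unadjusted p under 0.05, and edgeR's exact test called 987 and DESeq2 1133, with none of the 5 members among them. The log2 fold changes, subtropical minus equatorial, were -0.14 ± 0.34 for ISPD, -0.08 ± 0.45 for As_19328, -0.03 ± 0.52 for As_24340 and -0.66 ± 0.52 for As_17120 (SE, adjusted p of 0.905, 0.962, 0.988 and 0.649). The 95% intervals were -0.81 to 0.53 for ISPD and -1.05 to 0.99 for As_24340. In stems, the contrast that chose them, the values were 1.67 and 1.51, and the difference between the tissues was not tested. CLA1 had 46.8 ± 26.0 CPM in subtropical leaves and 8.50 ± 12.8 CPM in equatorial leaves (SD, n = 3 each), a log2 fold change of 2.48 ± 1.27 (SE, adjusted p = 0.461).

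In stems, neither of the 2 members chosen in leaves was called, where 78 of 34269 transcripts were (0.228%). Without adjustment 3093 had p under 0.05. DESeq2 called 690 transcripts and edgeR's exact test 573, neither member among them. CAO had 10.7 ± 0.6 CPM in subtropical stems and 4.75 ± 3.20 CPM in equatorial stems (SD, n = 3 each), a log2 fold change of 1.20 ± 0.52 (SE, adjusted p = 0.555). All 3 subtropical stems were above all 3 equatorial stems for CAO, as was so for 7.95% of the transcripts tested in stems. As_21256 had 1.66 ± 1.26 CPM in subtropical stems and 1.67 ± 0.64 CPM in equatorial stems (SD, n = 3 each), with a log2 fold change of 0.00 ± 0.67 (SE, 95% interval -1.31 to 1.32, adjusted p = 0.999).

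In flowers, none of the 6 members that passed the filter was called, and CLA1 did not pass it. The test called 0 of 29232 transcripts (0%), with 1654 at an unadjusted p under 0.05, and edgeR's exact test called 6 and DESeq2 50. Log2 fold changes were 0.23 ± 0.37 for ISPD, 0.01 ± 0.22 for As_21256, 0.15 ± 0.27 for As_19328, -0.48 ± 0.29 for As_24340, -0.01 ± 0.65 for As_17120 and 0.08 ± 0.40 for CAO, with adjusted p-values of 0.871 to 0.998. The 95% interval in flowers was -0.39 to 0.69 for As_19328, whose value in stems was 4.54, and -0.69 to 0.86 for CAO, whose value in leaves was 4.07. These values in stems and leaves chose the transcripts, and the difference between the tissues was not tested. Without the flower library labelled Eq6, 1.79% of 32029 transcripts were called and again none of the 6 members. As_24340 was then -0.75 on the log2 scale (adjusted p = 0.193), with both remaining equatorial flowers above the 3 subtropical ones, as was so for 18.4% of the transcripts tested, and As_17120 -0.51 (adjusted p = 0.588). None of the 6 members had every subtropical flower above every equatorial one, against 5.44% of the transcripts tested.

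The difference of the site effect between flowers and leaves was tested for the 4 members with an estimate that were chosen in stems, ISPD, As_19328, As_24340 and As_17120. None passed (log2 differences of -0.49 to 0.59, adjusted p of 0.926 to 0.988), where edgeR called 0 of 37761 transcripts (0%). Without adjustment 2835 had p under 0.05, and DESeq2 called 142.

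The contrasts that chose the members are given as descriptions. In stems, CLA1 was at least 120-fold higher in subtropical trees, taking 3 counts over the equatorial libraries as the limit. The stem of St1 held 289 of the 353 subtropical counts, and without that library the bound was 32.9-fold. As_19328 had 92.1 ± 24.6 CPM in subtropical stems and 3.99 ± 0.13 CPM in equatorial stems (SD, n = 3 each), a 23.3-fold difference. As_17120 had 92.7 ± 40.7 CPM and As_24340 110 ± 18 CPM in subtropical stems, against 14.3 ± 10.2 CPM and 39.2 ± 18.1 CPM in equatorial stems. ISPD had 27.0 ± 13.6 CPM in subtropical stems and 8.56 ± 1.77 CPM in equatorial stems. In leaves, CAO had 6.09 ± 1.75 CPM in subtropical trees and 0.379 ± 0.408 CPM in equatorial trees, and As_21256 9.10 ± 6.88 CPM in subtropical trees and 1.26 ± 1.03 CPM in equatorial trees. Marker levels differed in the same samples. The 2 photosystem markers summed to 130 to 221 CPM in subtropical stems and 80.2 to 168 CPM in equatorial stems, and to 464 to 673 CPM in subtropical leaves and 154 to 261 CPM in equatorial leaves. The 3 wood markers summed to 4.97 to 8.20 CPM in subtropical leaves and 9.04 to 59.3 CPM in equatorial leaves. Their part in the members' differences was not tested. In leaves, 9.51% of all tested transcripts had every subtropical library above every equatorial one, and CAO is the member chosen in leaves for which this held.

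**Figure D3:**
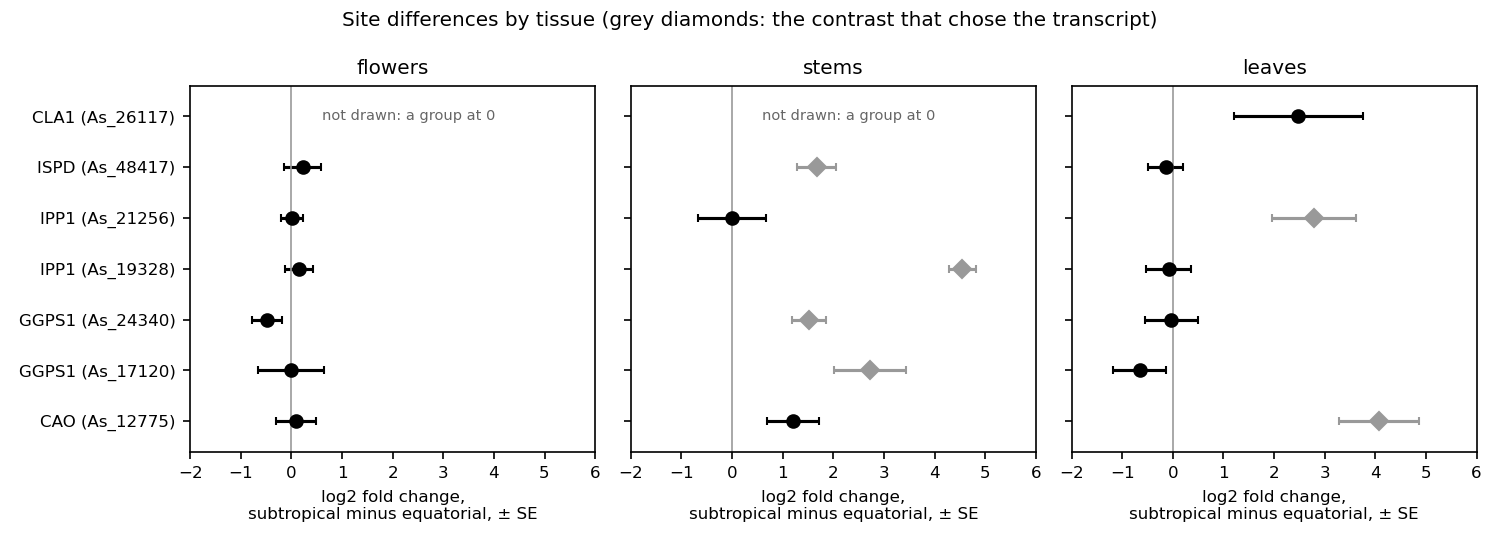
Site differences in flowers, stems and leaves, as log2 fold change of subtropical minus equatorial trees with the standard error as bars. Grey diamonds mark the contrast that chose a transcript and carry no test. In flowers all 6 estimates lie between -0.48 and 0.23.

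The copies of a gene were compared by the log2 ratio of their counts within a library, with 0.5 added to each count. Such a ratio does not depend on sequencing depth, but it includes the unknown lengths of both transcripts, so that only its change between tissues or sites is read. Reads shared by near-identical copies are not in the counts, and how many that were is not known here.

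For GGPS1, the ratio of As_17120 to As_24340 was lower in stems than in flowers and leaves. It averaged 1.04 ± 0.82 in flowers, -1.08 ± 1.24 in stems and 0.90 ± 0.38 in leaves (SD, n = 6 trees). Stems differed from leaves of the same tree by -1.98 ± 1.54 (SD, lower in 6 of 6 trees), and flowers were 2.12 ± 0.62 above stems (SD, higher in 6 of 6 trees). Both differences had p = 0.03125, the smallest that the exact two-sided sign-flip test allows with 6 trees, and an adjusted p of 0.0469 over the 6 tests of both genes. Both copies were chosen by their site difference in stems, so the stem values in these tests are not independent of the choice. In stems the ratio was -0.32 ± 0.74 in subtropical trees and -1.83 ± 1.25 in equatorial trees (SD, n = 3 each). Leaving out any tree ended the call for both genes, as 5 trees cannot go below 0.0625 (adjusted p of 0.075 to 0.09375). Flowers and leaves differed by 0.14 ± 1.06 (SD, exact permutation p = 0.781, adjusted 0.781). In leaves the ratio was 0.55, 0.60 and 0.60 in St1, St2 and St4, against 0.99, 1.40 and 1.30 in Eq4, Eq5 and Eq6. The sites did not overlap, with p = 0.1, the smallest that an exact permutation of 3 against 3 allows (adjusted p = 0.3 over 3 tests). In flowers the ratio was 1.44 ± 0.46 in subtropical trees and 0.649 ± 1.014 in equatorial trees (SD, n = 3 each, exact permutation p = 0.3). The flower library labelled Eq6 stood at -0.49, against 0.998 and 1.44 in Eq4 and Eq5, and without it the site difference was 0.21 in place of 0.79. The summed CPM of both copies was 94.4 ± 26.4 in subtropical flowers and 110 ± 76 in equatorial flowers, and 307 ± 16 in subtropical leaves and 419 ± 261 in equatorial leaves (SD, n = 3 each), with an exact permutation p of 1 on the log2 scale in both tissues. Across the 18 libraries the log2 CPM of the copies had a Pearson correlation of 0.69 (0.66 without the flower library labelled Eq6), a description over libraries that share tissues and trees.

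For IPP1, the ratio of As_19328 to As_21256 was lower in flowers than in leaves, and in stems it differed between the sites. It averaged 1.30 ± 0.43 in flowers, 3.69 ± 2.68 in stems and 5.71 ± 1.76 in leaves (SD, n = 6 trees). Flowers were below leaves by 4.41 ± 1.82 and below stems by 2.39 ± 2.54 (SD, lower in 6 of 6 trees for each, exact permutation p = 0.03125, adjusted 0.0469). The leaf values include As_21256, chosen by its site difference in leaves. The test of flowers against leaves is therefore not independent of the choice. The gap between flowers and stems was that of the subtropical trees, as the equatorial flowers, at 0.69, 1.80 and 1.09 in Eq4, Eq5 and Eq6, lay close under the stems of the same trees, and the stem values include As_19328, chosen by its site difference there. Stems and leaves had no common direction, with a mean difference of -2.03 ± 4.10 (SD, exact permutation p = 0.25, adjusted 0.3). Stems were 5.24, 5.95 and 7.001 in St1, St2 and St4, against 0.78, 1.86 and 1.29 in Eq4, Eq5 and Eq6. Leaves were 4.32, 3.34 and 5.56 in the subtropical trees, against 6.33, 8.38 and 6.35 in the equatorial trees. In both tissues 1 copy was chosen for its site difference, so these values carry no test. In flowers, which chose neither copy, the ratio was 1.41 ± 0.33 in subtropical trees and 1.19 ± 0.56 in equatorial trees (SD, n = 3 each, exact permutation p = 0.7). The summed CPM was 120 ± 13 in subtropical flowers and 114 ± 31 in equatorial flowers (SD, n = 3 each, exact permutation p = 0.8). The correlation of the copies' log2 CPM over the 18 libraries was 0.27.

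**Figure D4:**
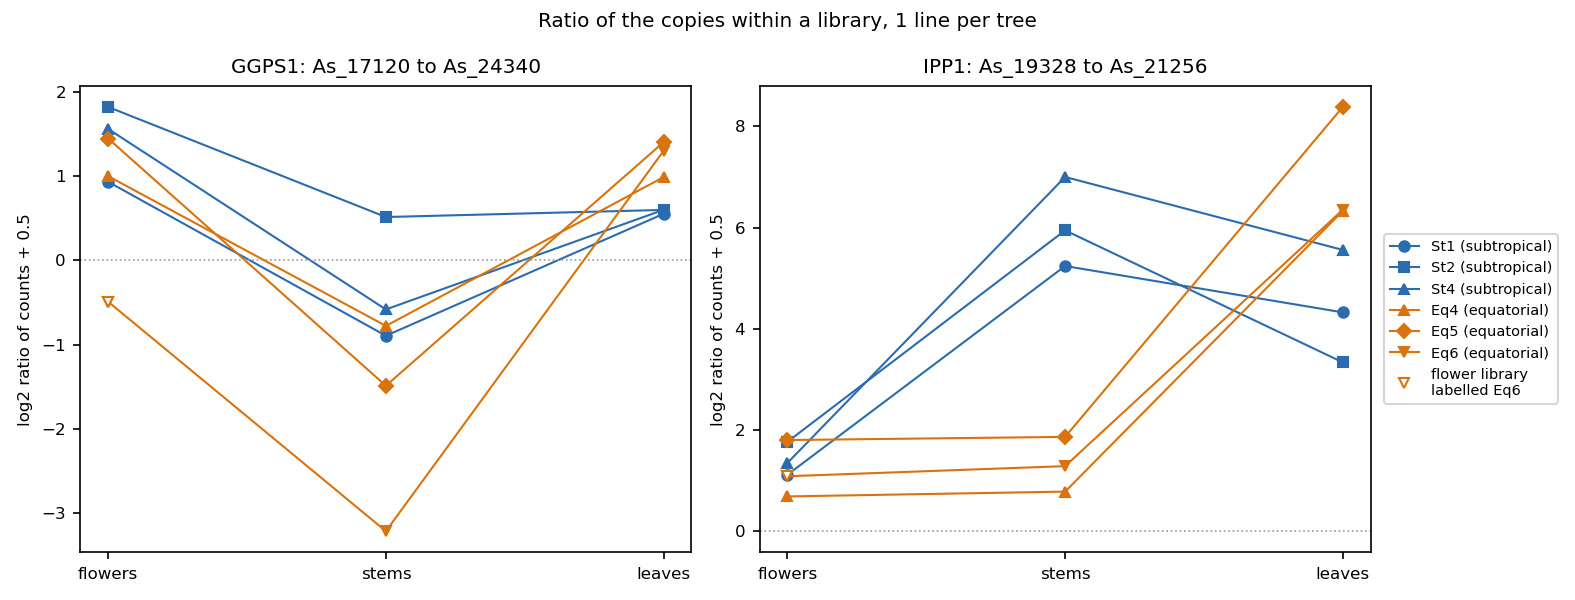
Log2 ratio of the counts of the copies of GGPS1 (As_17120 to As_24340) and IPP1 (As_19328 to As_21256) in flowers, stems and leaves, with 1 line per tree, subtropical in blue and equatorial in orange. The GGPS1 ratio was lower in stems than in leaves in 6 of 6 trees. The IPP1 ratio of equatorial stems, 0.78 to 1.86, lies near that of flowers, while that of subtropical stems is 5.24 to 7.001.

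Among the other transcripts that the study's tables name as users of isoprenoids, ABC4 (As_25935), a prenyltransferase of phylloquinone synthesis, followed the flower pattern. It averaged 51.5 ± 28.2 CPM in subtropical flowers and 47.6 ± 38.6 CPM in equatorial flowers (SD, n = 3 each), and rose in flowers relative to leaves by 3.001 ± 0.444 (log2, SE, adjusted p = 5.17e-05) and relative to stems by 4.89 ± 0.49 (adjusted p = 2.77e-06), while stems were below leaves at -1.89 ± 0.46 (adjusted p = 0.00460). NCED3 (As_19228), which cleaves carotenoids on the way to abscisic acid, had -0.37 ± 0.51 in flowers relative to leaves (SE, adjusted p = 0.586) and was called in no tissue contrast. Neither was called between sites in flowers, with adjusted p of 0.983 and 0.933. Other genes of the pathway were not analysed here.

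Among 122 other transcripts that the tables name, those with the highest Pearson correlation of log2 CPM over the 18 libraries were sought for each member. As_21256 was most like ABC4 (0.81) and an NAD(P)-linked oxidoreductase (As_3802, 0.81). CLA1 was most like PHOT2 (As_13960, 0.86), a blue-light receptor, and PSBO1 (As_16502, 0.84), and ISPD most like PSBO1 (0.88) and PQL2 (As_24908, 0.86). As_24340 was most like PHOT2 (0.77) and PSBO1 (0.74), and As_17120 like ARD4 (As_12788, 0.68) and PHOT2 (0.63). CAO was most like 2 transcripts matching CSD1, a copper/zinc superoxide dismutase (As_17209, 0.90, and As_26546, 0.83). As_19328 had no close match, with 0.60 for AGL24 (As_10296) as the highest. These values describe libraries that share trees and tissues. The members, and the named transcripts that the study listed for site differences, were picked in these same libraries. Their correlations are therefore not independent of that choice.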

How the data were processed

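Total RNA of 18 tissue samples was sequenced with an Illumina TruSeq RNA kit, which does not mark strand, so that reads of a transcript and of an antisense partner cannot be told apart. The authors filtered and assembled the reads, mapped them with Bowtie 0.12.2 (per the submitters' processing notes) and deposited raw counts of uniquely mapped reads per transcript, without normalization, so that reads shared by near-identical copies are missing. The values of every sample's own file are identical to those of that sample in the combined table. No coordinates were used. Gene names are the *Arabidopsis* matches in the study's supplementary tables, and the authors' fold changes in them were not used.

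Groups come from the sample titles. Counts were analysed with edgeR 4.0.16 (limma 3.58.1, R 4.3.3), TMM scaling and filterByExpr. Sites were compared within a tissue, 3 libraries against 3, and tissues in 1 fit of 6 groups. Standard errors were taken from the F statistic as |log2 fold change| divided by its root. Log2 CPM used a prior count of 2. Copies were compared by exact permutation tests over trees (Python 3.11.15). Alternatives were edgeR's exact test, which the study names, DESeq2 1.42.0, RLE scaling, no filter, 1 fit for all libraries, the tree as a block, another pseudocount and leaving out trees or libraries. The block without the flower library labelled Eq6, the summed CPM without it, and the pooled CLA1 ratios without St1 or Eq5 were added after the data were seen. The fits were tested on simulated data. The members, the lists and the markers were chosen with earlier results of these data known. The text names the 7 members, the listed transcripts of neighbouring pathways, and for each member the 2 most correlated named transcripts.

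By the labels, leaves, stems and flowers of a number come from the same tree. Deviations from the group means correlated over 37761 transcripts between leaf and stem of a tree by -0.02 in Eq4 and 0.08 to 0.40 in the others, between leaf and flower by 0.06 to 0.32 and between stem and flower by 0.02 to 0.27. No library pair of a group agreed within sampling noise, with a chi-square per transcript of 26.0 or more. Whether depth or the spread between 3 trees limits a value differs by transcript: edgeR's biological coefficient of variation was 0.417 for flowers, 0.402 for stems and 0.359 for leaves, while CLA1 and CAO rest on few counts in some groups.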

Additional observations from a re-analysis of the deposited data

Results flagged for a closer look

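CAO (As_12775) moved in opposite directions between flowers and leaves at the 2 sites. On the log2 CPM scale, flowers minus leaves was -0.61, -0.44 and -0.66 in St1, St2 and St4, against 3.18, 1.96 and 4.37 in Eq4, Eq5 and Eq6, so that the mean of the subtropical trees lay 3.74 below that of the equatorial trees (a difference of -3.74). The difference was not tested, because the site difference in leaves chose this transcript, and equatorial leaves held 10 counts in all. The value of Eq6 includes the flower library labelled Eq6.

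The log2 ratio of the IPP1 copies (As_19328 to As_21256) was higher in stems than in leaves in every subtropical tree, by 0.92, 2.61 and 1.44 in St1, St2 and St4, and lower in every equatorial tree, by -5.55, -6.52 and -5.07 in Eq4, Eq5 and Eq6. The means of the sites differed by 7.37. The difference was not tested, because the site difference in stems chose As_19328 and that in leaves chose As_21256.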

How the results depend on the processing

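Of 765 values recomputed under alternatives, 650 were scored as unchanged, and of the 508 values of single members 457 were. For a tested value, unchanged means the same direction and the same side of the threshold. For a count of calls it means a change within a fixed ratio. For a value given as a description it means the same direction and a shift below a fixed multiple of its SE. RLE scaling, no filter and DESeq2 changed the call of no member. The number of transcripts called between sites depended on the test. In leaves it was 56, against 987 with edgeR's exact test, 1133 with DESeq2, 103 with 1 fit over all libraries and 0 to 105 without single libraries. In stems it was 78, against 573 and 690 with the exact test and DESeq2 and 0 to 87 without single libraries. In flowers it was 0, against 6, 50 and 1, and 0 to 573 without single libraries, with 573 without the one labelled Eq6. For the difference between flowers and leaves it was 0, against 142 with DESeq2, 61 with the tree as a replicate block and without the flower library labelled Eq6, and 0 to 34 without single trees or libraries. The cause of these shifts was not tested.

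The replicate block, with leaves, stems and flowers of a tree paired, called As_17120 in flowers relative to stems (0.99, adjusted p = 0.000704, and 1.05 without the flower library labelled Eq6) and, without that library, CAO (-1.01, adjusted p = 0.0196). It changed no other call of a member. The sites share only number 4, so no pairing between sites was possible.

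Other values changed sign without being called. As_21256 between sites was -0.012 in stems with no filter and -0.021 with 1 fit, and in flowers -0.0031 with DESeq2, -0.0056 with RLE scaling and -0.0013 with 1 fit. Without single libraries, site differences in leaves ranged from -0.40 to 0.17 for ISPD, -0.44 to 0.18 for As_19328 and -0.48 to 0.31 for As_24340. In stems As_21256 ranged from -0.74 to 0.45, and in flowers As_21256 from -0.088 to 0.16, As_19328 from -0.036 to 0.47, As_17120 from -0.51 to 0.74 and CAO from -0.095 to 0.29. The difference of site effects ranged from -0.16 to 0.48 for As_19328. In flowers relative to leaves 4 to 7 members were called without single trees.

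Without single trees or libraries, the GGPS1 ratio ranged from -2.36 to -1.47 in stems minus leaves, -0.079 to 0.52 in flowers minus leaves and 1.95 to 2.28 in flowers minus stems, and the IPP1 ratio from -4.98 to -3.98 in flowers minus leaves and -2.85 to -1.73 in flowers minus stems. Between sites, the GGPS1 ratio in flowers ranged from 0.21 to 1.18, the IPP1 ratio in flowers from -0.033 to 0.52, and log2 summed CPM from -0.89 to 0.27 for GGPS1 in leaves, -0.61 to 0.56 for GGPS1 in flowers and -0.037 to 0.31 for IPP1 in flowers. Depth limits CLA1 in equatorial stems and in flowers and CAO in equatorial leaves, where groups held 0 to 10 counts.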
